A study of Homo sapiens with 4 samples.

Results

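The response to TGF-beta was measured in SCP2 cells labelled as overexpressing DLC1, as the difference between 1 array of treated cells and 1 array of untreated cells, 2 of the study's 4 arrays. The other 2 arrays hold SCP2 cells with the vector control, again untreated and treated with TGF-beta. SCP2 is an established subline of the human breast cancer line MDA-MB-231, and all 4 groups share this line. The sources used here do not give the dose or duration of the treatment, nor whether the overexpressing cells were 1 clone or a pool. With 1 array a side no difference has a replicate check, so sizes are given and no p-value.

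Levels are the deposited intensities on a linear scale in arbitrary units, and they are compared only within a probe set. A difference is the log2 intensity with TGF-beta minus that without. "Rose" and "fell" are used only of genes whose levels on the arrays named were 2-fold or more apart, that is, 1 or more on the log2 scale. A gene was represented by the brightest of its probe sets, and was kept where at least 1 of the 4 arrays read 0.38, the median of the whole table, or more. This left 13134 of the 19775 genes that the platform annotation names.

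TGF-beta is a secreted cytokine that bone matrix stores in quantity and that bone resorption releases. It binds pairs of type II and type I serine/threonine kinase receptors, which phosphorylate the receptor SMADs; these join SMAD4 and act on genes in the nucleus. Among the genes it is known to induce are its own inhibitors, such as SMAD7 and SKIL, together with collagens and other matrix genes, and in bone-colonising breast cancer cells it is known for raising secreted factors that act on osteoclasts. DLC1 is a tumour suppressor gene whose product switches off small GTPases.

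The transcripts of DLC1 were read first, as a check of the labels. The probe set used for DLC1 read 1.77 and 2.51 in the vector arrays without and with TGF-beta and 3.38 and 3.64 in the arrays labelled DLC1. A further DLC1 probe set read 1.79 and 2.41 in the vector arrays and 1.44 and 1.69 in the arrays labelled DLC1. The remaining kept set was dim, at 0.26 and 0.41 in the vector arrays and 0.18 and 0.19 in the arrays labelled DLC1. The first was higher and the other 2 lower in the arrays labelled DLC1, so the transcript does not settle the label. The arrays are therefore called "labelled DLC1" throughout. With TGF-beta these probe sets differed by 0.11, 0.23 and 0.08 on the log2 scale there, all under 2-fold. All 8 markers of these cells that were looked at were kept. VIM, which encodes the mesenchymal filament vimentin, read 160.30 and 183.17 in the arrays labelled DLC1. Of 8 luminal markers 5 were kept, among them KRT19, at 16.45 and 16.56 in the arrays labelled DLC1, and EPCAM, at 6.41 and 6.23. The luminal markers PGR, FOXA1 and CDH1 stayed under the filter on all 4 arrays. Of the other cell types' markers, 3 of 5 measured leukocyte, 2 of 4 endothelial and 3 of 6 fibroblast and bone markers were kept. Their summed levels in the untreated and then the treated array labelled DLC1 were 11.25 and 8.87, 1.74 and 1.5, and 4.98 and 5.48. HLA-DRA, at 9.02 and 7.12, made up most of the leukocyte sum. CD14 read 1.49 and 1.08, and LYZ, kept through the vector arrays, 0.20 and 0.17. PECAM1 read 0.85 and 0.67, KDR 0.46 and 0.47, PDGFRB 0.48 and 0.69, IBSP 0.43 and 0.46, and RUNX2 3.47 and 3.75. The measured markers that were not kept, PTPRC, CD3E, CDH5, VWF, PDGFRA, DCN and LUM, were under the filter on every array. In bulk RNA, fewer cells of a type and less RNA per cell cannot be told apart.

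Array controls give the only technical scale. The 18 hybridisation spikes differed by -0.15 to -0.01 on the log2 scale between the 2 arrays labelled DLC1, the 24 poly-A spikes by -0.47 to 0.10, and the 3 GAPDH control sets by -0.03 to 0.01. The 3 actin control sets read 0.18 to 0.31 higher with TGF-beta. The 5′ to 3′ gap of the control transcripts, a measure of RNA integrity, moved by 0.08 for actin and -0.04 for GAPDH. In the vector arrays that gap moved by 0.43 for actin and 0.02 for GAPDH. The vector pair's actin sets read 0.39 to 0.82 higher with TGF-beta. Its hybridisation spikes differed by -0.09 to 0.08, its poly-A spikes by -0.33 to 0.23 and its GAPDH sets by 0.05 to 0.12. The 3 18S sets differed by 0.33 to 0.39 there and by -0.22 to 0.02 in the arrays labelled DLC1. All of these lay within 2-fold, the size rule used here.

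With TGF-beta, 102 genes rose in the arrays labelled DLC1, 0.777% of the genes kept, and 14 fell, 0.107%. These shares are small, so a count of 0 in a short gene list lies near them. The median gene differed by -0.01, 81.5% of the genes lay within 0.25 of no difference, and the 1st and 99th percentiles were -0.59 and 0.90. Most genes thus lay in a narrow bulk, and its upper edge was gradual, as the 102 genes that rose had a median difference of 1.30. At 1.5-fold the counts were 299 higher, 2.28%, and 134 lower, 1.02%. The members at the edge of the 2-fold rule were CLTCL1, which encodes a clathrin heavy chain, LINC01560 and the transcription factor gene POU3F2 at exactly 2-fold on the higher side, with the adaptor gene SH3KBP1 just outside at 0.99. On the lower side the edge lay between VIPR1, the receptor gene for vasoactive intestinal peptide, at -1.01 and the phosphodiesterase gene PDE7B at -0.96. Values are rounded to 2 decimals, and for 5 of the 116 genes a rounding error of 0.005 in each value could bring the difference under 2-fold.

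**Figure D1:**
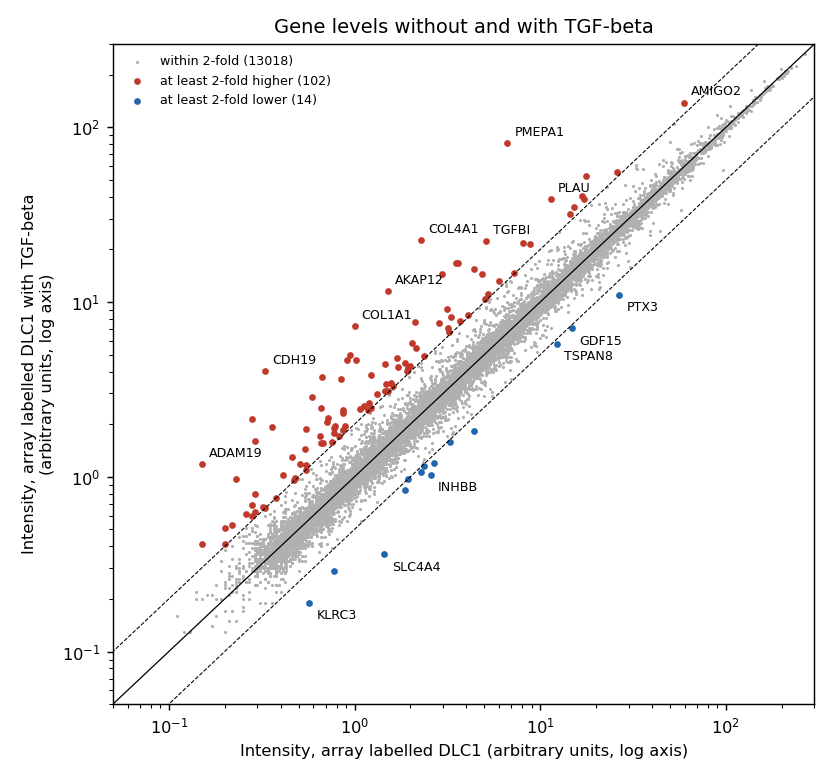
Intensity of each of the 13134 genes kept in the array labelled DLC1 with TGF-beta (vertical) against the array labelled DLC1 without it (horizontal), arbitrary units on log axes. The solid line marks equality and the dashed lines 2-fold; 102 genes lie at least 2-fold above (red) and 14 at least 2-fold below (blue), with PMEPA1 rising from 6.63 to 80.96.

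Among the pathway's own inhibitors 3 rose, PMEPA1 by the most. PMEPA1, a membrane protein that keeps receptor SMADs from the receptor, went from 6.63 to 80.96 in the arrays labelled DLC1 and from 8.19 to 89.76 in the vector arrays. It was low on both untreated arrays and high on both treated ones, and rose 12.2-fold, a difference of 3.61, in the arrays labelled DLC1. SMAD7, the inhibitory SMAD that blocks the type I receptor, went from 0.85 to 3.65 there and from 1.0 to 4.92 in the vector arrays, differences of 2.10 and 2.30. SKIL, which encodes the SMAD co-repressor SnoN, went from 2.84 to 7.59 and from 3.45 to 10.87, differences of 1.42 and 1.66. For each of these inhibitors both treated arrays lay above both untreated arrays. Of the 22 SMAD and feedback genes kept, these 3 rose and 0 fell, and the list's median was 0.10 beside -0.01 over all genes. The ubiquitin ligase genes SMURF1 and SMURF2, whose products mark SMADs and receptors for breakdown, differed by 0.54 and 0.51, and CITED2, a transcriptional co-regulator, by -0.66.

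The bases just before the start of SMAD7 are shown because SMAD7 is a direct feedback target whose promoter is known to carry SMAD-binding elements. The capitals mark the SMAD motif CAGAC, searched on both strands. The window is chr18:48950966-48951215, minus strand, GRCh38.p14, from RefSeq, written 5′ to 3′ along the gene, and holds the motif at 2 places.
SMAD7: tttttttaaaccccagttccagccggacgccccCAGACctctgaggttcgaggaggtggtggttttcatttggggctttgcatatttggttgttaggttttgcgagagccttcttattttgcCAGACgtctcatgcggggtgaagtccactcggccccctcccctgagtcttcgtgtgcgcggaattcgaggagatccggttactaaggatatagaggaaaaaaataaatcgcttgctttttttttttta
A single match of this kind is common. CAGAC was found in 36.9% of the 130 promoter windows of the genes that rose, in 34.8% of the 23 windows of those that fell, and in 36.5% of the 15437 windows of all genes kept.

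Among the family's ligands and their binding proteins, 2 of 25 genes kept rose and 2 fell, with a median of 0.08. LTBP2, a latent TGF-beta binding protein of the elastic fibre, went from 1.94 to 4.19 in the arrays labelled DLC1 and from 1.64 to 3.30 in the vector arrays. FSTL3, a secreted protein that binds and neutralises activin, went from 0.78 to 1.77 and from 0.62 to 2.0. INHBB, the beta-B subunit of activin and inhibin, moved the other way, from 2.57 to 1.03 in the arrays labelled DLC1 and from 0.68 to 0.26 in the vector arrays. The treated array was the lower of each pair for INHBB, and the treated array labelled DLC1 still lay above both vector arrays. GDF15, a distant family member released under cell stress, went from 14.78 to 7.06 and from 1.59 to 0.78, so that each pair parted by about the same factor from starting levels that were far apart. INHBA, the beta-A activin subunit, and BMP2, a bone morphogenetic protein, differed by 0.78 and 0.76 in the arrays labelled DLC1 and by 1.10 and 1.54 in the vector arrays.

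None of the 13 family receptors kept passed 2-fold in either direction, and their median was 0.12. The receptor values ran from -0.72 for TGFBR3, the co-receptor betaglycan, to 0.67 for BMPR2, the type II receptor for bone morphogenetic proteins. TGFBR2, the type II receptor for TGF-beta itself, differed by 0.37, and BAMBI, a decoy receptor that lacks the kinase, by 0.54. The 34 kept genes listed as known TGF-beta-induced targets had 17 members that rose and 0 that fell in the arrays labelled DLC1. Of all genes kept 0.777% rose there. The list's median was 0.99 beside -0.01 over all genes. Because the list was chosen with earlier results of these data known, its count and median are descriptions. In the vector arrays 22 of the listed targets rose and their median was 1.20. Of the 6 genes kept from the list of known repressed targets 0 passed 2-fold, and the median was -0.13 beside 0.10 in the vector arrays. In the arrays labelled DLC1 HES1 differed by 0.77, CDC25A by -0.36, ID1 by 0.32, MYC by -0.20, ID4 by -0.18 and ID2 by -0.09.

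Of the 23 collagen chains kept 8 rose and 0 fell, with a median of 0.25, which became 0.52 with the filter at 2 times the median and 0.11 with a pseudocount of 0.5. COL4A1 encodes a chain of the basement membrane collagen and went from 2.29 to 22.73 in the arrays labelled DLC1 and from 3.98 to 33.66 in the vector arrays. COL4A2, the chain that assembles with it, went from 3.62 to 16.66 and from 4.66 to 23.49. Both treated arrays lay well above both untreated ones for either chain, with differences of 3.31 and 2.20 in the arrays labelled DLC1. COL4A4, a chain of the specialised basement membranes of kidney and ear, went from 0.83 to 1.72 and from 0.27 to 0.64, and its untreated level in the array labelled DLC1 was above the treated level in the vector array.

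COL4A1 and COL4A2 lie head to head on chromosome 13 and are known to be transcribed in opposite directions from a shared promoter. The 126 bases between their starts are shown because both genes rose; they hold the motif CAGAC on neither strand. A second such pair among the genes that rose was HHIP and its antisense transcript HHIP-AS1, whose starts lie 136 bases apart on chromosome 4, again with no CAGAC between them. Both stretches are from RefSeq, GRCh38.p14, plus strand, at chr13:110307158-110307283 and chr4:144646020-144646155, and nothing is in capitals because no motif was found.
COL4A1-COL4A2: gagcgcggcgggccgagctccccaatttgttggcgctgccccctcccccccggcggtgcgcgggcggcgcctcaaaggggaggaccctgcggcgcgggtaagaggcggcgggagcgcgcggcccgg
HHIP-AS1-HHIP: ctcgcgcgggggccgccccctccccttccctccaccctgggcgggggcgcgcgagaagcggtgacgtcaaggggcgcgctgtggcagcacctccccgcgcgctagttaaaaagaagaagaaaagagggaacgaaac
HHIP, a membrane protein that binds Hedgehog ligands, went from 1.02 to 4.64 in the arrays labelled DLC1 and from 1.17 to 4.61 in the vector arrays. HHIP-AS1 went from 1.92 to 4.04 and from 2.56 to 5.15. The sense difference of 2.19 was larger than that of the divergent transcript, 1.07.

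COL1A1, the major chain of type I collagen in bone and tendon, went from 1.0 to 7.27 in the arrays labelled DLC1 and from 0.94 to 9.70 in the vector arrays on the probe set used. Its 3 other kept probe sets disagreed, with 1.68, 0.40 and -0.33 in the arrays labelled DLC1, so the size of this rise depends on the probe set. COL6A3, a chain of the beaded microfibrils around cells, went from 0.91 to 4.66 and from 0.94 to 5.75. COL7A1, the anchoring fibril collagen under epithelia, went from 1.22 to 3.82 and from 1.01 to 5.30. COL5A1, which regulates the thickness of type I fibrils, differed by 1.51, and the fibrillar chain COL27A1 by 1.02. Of the 8 chains that rose, COL27A1 was the one that did not pass 2-fold in the vector arrays, where it differed by 0.89.

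None of the 23 collagen-modifying enzymes kept passed 2-fold, where 0.777% of all genes kept rose and 0.107% fell. Their median was 0.04. The enzyme values ran from -0.53 for the prolyl hydroxylase P3H2 to 0.48 for P4HA2, with the crosslinking enzyme LOX at 0.44. Of 36 matrix glycoproteins and proteoglycans, 2 rose and 0 fell. TGFBI, an integrin-binding matrix protein named for its induction by TGF-beta, went from 5.12 to 22.39 in the arrays labelled DLC1 and from 7.15 to 35.43 in the vector arrays. THBS1, thrombospondin, which can release TGF-beta from its latent complex, went from 15.16 to 34.97 and from 48.71 to 60.24. On that probe set the untreated array labelled DLC1 was the lowest of the 4. The 6 other THBS1 probe sets kept gave 0.59 to 1.5 in the arrays labelled DLC1 and 1.07 to 1.75 in the vector arrays, where the set used gave 0.31. CCN2, FN1 and MFAP2, which encode connective tissue growth factor, fibronectin and a microfibril protein, differed by 0.98, 0.89 and 0.85. Outside the list, CTHRC1, a secreted collagen triple helix repeat protein, differed by 1.92 and CHST3, a Golgi sulfotransferase of chondroitin, by 1.03; another kept CHST3 set gave -0.12. None of the 8 laminin chains kept passed 2-fold, and they ran from -0.81 for LAMA5 to 0.82 for LAMB1.

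ADAM19, a membrane-anchored metalloprotease that sheds cell-surface proteins, went from 0.15 to 1.18 in the arrays labelled DLC1 and from 0.51 to 3.96 in the vector arrays. Its untreated value lay under the filter, so the 7.87-fold change rests on a dim denominator, and the other ADAM19 probe set kept differed by 0.36. ADAMTS6, a secreted metalloprotease, went from 1.71 to 4.23 and from 3.79 to 7.29. These were the 2 that rose of 26 ADAM and ADAMTS genes; on the mean of its kept probe sets ADAMTS6 gave 0.92, which ends its call. PLAU, the urokinase that activates plasminogen, went from 11.42 to 38.82 and from 24.72 to 72.43, and was the only riser of the 10 urokinase and serpin genes kept; its receptor gene PLAUR differed by 0.42. None of the 18 matrix metalloproteinases and TIMPs kept passed 2-fold, and their range of -0.51 to 0.37 was narrow. For PLAU and ADAMTS6 the untreated array labelled DLC1 was again the lowest of the 4.

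CDH19, a cadherin of neural crest derivatives, went from 0.33, under the filter, to 4.04 in the arrays labelled DLC1 and from 1.07 to 9.43 in the vector arrays; its other kept probe sets gave 0.79 and 1.30 in the arrays labelled DLC1. NEDD9, a scaffold of focal adhesions known in cell migration, went from 0.94 to 5.01 and from 0.47 to 5.09. FERMT1, the integrin activator kindlin-1, went from 3.51 to 16.77 and from 5.87 to 38.34. The treated arrays were the upper pair for all 3 genes, and on the probe set used NEDD9 reached nearly the same level on both. The other kept NEDD9 set read 0.96 in the treated array labelled DLC1 and 1.64 in the treated vector array. AKAP12, a scaffold for protein kinases at the membrane, went from 1.51 to 11.53 and from 4.09 to 27.81. CNTN1, a neural adhesion molecule, went from 0.36 to 1.92 and from 0.89 to 6.99, although another of its probe sets differed by 0.05 in the arrays labelled DLC1. PODXL, an anti-adhesive sialomucin, went from 17.63 to 52.61 and from 21.32 to 58.96. The adhesion molecule gene AMIGO2 rose from 59.41 to 138.35 and from 66.97 to 131.97, and was just short of 2-fold in the vector arrays with 0.98. EMB, which encodes the adhesion protein embigin, differed by 1.07.

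Of 27 focal adhesion genes 2 rose, NEDD9 and FERMT1, and the median was 0.24. Of 21 integrin subunits 0 passed 2-fold and the median was -0.08, between -0.86 for ITGA10 and 0.99 for ITGA2, which was just short of the rule; ITGB3, the bone-associated subunit, differed by 0.69 in the arrays labelled DLC1 and by -0.02 in the vector arrays. Of 36 actin and SRF target genes 1 rose: TPM1, the tropomyosin that stabilises actin filaments, from 25.83 to 55.62 and from 31.61 to 79.25. Outside the lists, the filopodial motor gene MYO10 rose from 8.07 to 21.88, the formin gene DAAM1 from 1.32 to 2.98, the pleckstrin family gene PLEK2 from 4.87 to 14.52, the tubulin gene TUBA4A from 8.77 to 21.63 and the actin filament adaptor gene AFAP1L2 from 0.29 to 0.80. ARHGAP32, which encodes a GTPase-activating protein, rose from 3.17 to 7.15. None of the 28 YAP and TAZ targets kept passed 2-fold, and their median was 0.00.

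On the mesenchymal side, markers of the epithelial-mesenchymal transition stayed within 2-fold, as most genes kept did. None of 14 transcription factors and mesenchymal markers passed it, although 12 were above 0 and the median was 0.26; FN1 differed by 0.89, PRRX1 by 0.79, SPARC by 0.73 and SNAI2 by 0.71. In the vector arrays 4 of the 14 rose, with a median of 0.24. Among 21 epithelial genes 2 rose, both keratins. KRT7, a keratin of simple epithelia, went from 4.10 to 8.39 in the arrays labelled DLC1 and from 2.32 to 6.18 in the vector arrays, and the basal keratin KRT14 went from 0.15 to 0.41 and from 0.21 to 0.63, with both untreated values under the filter. The other kept KRT7 probe set differed by -0.09 in the arrays labelled DLC1, and the mean of the KRT7 sets, 0.47, ends that call. The gap junction genes GJA1 and GJB2, which encode connexins, went from 3.68 to 7.75 and from 0.68 to 1.56 in the arrays labelled DLC1.

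EPHA4, a receptor tyrosine kinase for ephrins, went from 0.67 to 3.72 in the arrays labelled DLC1 and from 1.5 to 8.70 in the vector arrays. NRP2, a co-receptor for semaphorins and VEGF, went from 0.55 to 1.87 and from 1.8 to 6.27 on the probe set used, while its 7 other kept sets gave 0.04 to 0.83 in the arrays labelled DLC1. Of 48 guidance genes EPHA4 and NRP2 were the 2 that rose, and the list's median was 0.00. The Hedgehog co-receptor gene CDON differed by 1.09, PRICKLE2 of the planar polarity pathway by 1.03, and APCDD1L, a relative of a Wnt inhibitor, by 1.40. None of the 33 Wnt and Notch genes kept passed 2-fold; JAG1, the Notch ligand studied in bone metastasis, differed by 0.79. The neuroendocrine genes SCG5, a chaperone of prohormone convertase, and UCN2, a stress neuropeptide, went from 2.95 to 14.53 and from 0.46 to 1.30. UCN2 and COL7A1, which both rose, are neighbours 291 bases apart on chromosome 3. DCLK1, a microtubule-binding kinase, went from 0.41 to 1.03.

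Growth factor and kinase signalling genes also rose singly. PDGFB, the platelet-derived growth factor B chain, went from 0.54 to 1.44 in the arrays labelled DLC1 and from 0.42 to 0.92 in the vector arrays, and was the 1 of 31 bone-acting secreted factors that rose. SPHK1, which makes the lipid signal sphingosine-1-phosphate, went from 1.86 to 4.5 and from 3.04 to 10.08. NUAK1, a kinase related to AMPK, went from 14.51 to 31.94 and from 16.41 to 32.24. The receptor tyrosine phosphatase genes PTPRK and PTPRB both differed by 1.18, the phosphoinositide 3-kinase subunit gene PIK3CG by 1.10 and its inhibitor PIK3IP1 by 1.12. UBASH3B, a phosphatase that acts on receptor kinases, went from 5.98 to 13.22. HECW2 and RNF128, both ubiquitin ligases, differed by 2.27 and 1.24, and MARCHF4, a membrane-bound ligase, by 1.42. None of the 33 genes listed as EGF family ligands and ERK feedback genes passed 2-fold in the arrays labelled DLC1, with SPRY1 at -0.90 and EREG at -0.75 the lowest.

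Among regulators of transcription and the cell cycle, CDKN1A, the p21 inhibitor of cyclin-dependent kinases through which TGF-beta is known to slow division, went from 7.27 to 14.65 in the arrays labelled DLC1 and from 4.41 to 9.91 in the vector arrays. None of the 37 cell cycle genes passed 2-fold, but 36 were below 0 in the arrays labelled DLC1, beside 52.1% of all genes kept, and 34 in the vector pair, beside 54.8%. Their medians were -0.19 and -0.28, and the lowest in the arrays labelled DLC1 were CCNE2, a G1 cyclin, at -0.68 and MCM2, a replication licensing factor, at -0.60. E2F2, a transcription factor of S-phase entry, fell from 2.36 to 1.16 in the arrays labelled DLC1 and went from 1.05 to 0.80 in the vector arrays. Of 29 early response transcription factors 2 rose: PRDM1, a zinc finger repressor, from 0.22 to 0.53, and the Krüppel-like factor KLF7 from 0.51 to 1.19. The untreated PRDM1 value lay under the filter, its 2 other kept sets gave 0.36 and -0.18, and the mean of its sets, 0.48, ends the call. SOX5 went from 0.32 to 0.67 in the arrays labelled DLC1 and from 0.61 to 3.11 in the vector arrays, and POU3F2 from 0.33 to 0.66 and from 1.39 to 3.83. The TEAD cofactor gene VGLL3 differed by 1.34, the limb-bud and heart gene LBH by 1.81, the vitamin D receptor gene VDR by 1.06 and MAF, a leucine zipper factor, by 1.12. DDB2, of DNA damage recognition, went from 1.70 to 4.80, and HSF2BP, a meiotic recombination gene, from 0.72 to 2.17.

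HMOX1, which degrades haem, went from 3.31 to 8.26 in the arrays labelled DLC1 and from 3.29 to 13.74 in the vector arrays. CDS1 makes the phospholipid precursor CDP-diacylglycerol and went from 0.87 to 2.40 and from 0.50 to 3.24. BPGM, the bisphosphoglycerate mutase, differed by 1.18, the lipid phosphatase gene PLPP4 by 1.53, the lysophospholipid acyltransferase gene LPCAT2 by 1.06 and the glycosyltransferase gene GALNT10 by 1.09. Of 211 solute carriers 3 rose and 1 fell, where 0.777% of all genes kept rose and 0.107% fell. Those that rose were SLC46A3, a lysosomal transporter, at 1.86, SLC29A1, a nucleoside transporter, at 1.20, and SLC7A7, an amino acid transporter, at 1.14. SLC4A4 was on the lower side. None of the 17 cholesterol synthesis, 24 hypoxia and glycolysis, 29 interferon response or 20 endoplasmic reticulum stress genes passed 2-fold, and their medians of -0.06, -0.06, -0.08 and 0.02 lay near that of all genes. Of 168 long intergenic noncoding RNAs 3 rose and 1 fell, beside the same shares of 0.777% and 0.107% over all genes kept. The differences were 1.54 for LINC01943, 1.03 for LINC00702, 1.0 for LINC01560 and -1.28 for LINC00261. MIR181A2HG, the host transcript of a microRNA pair, went from 0.23 to 0.97.

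The remaining genes that rose have roles outside these groups or ones that were not assigned here. HTN1, named for a salivary histatin, went from 0.28 to 2.14 in the arrays labelled DLC1 and from 0.34 to 2.02 in the vector arrays, but the histatin genes are near-identical copies and its probe set is of the kind that can bind several transcripts, so the gene is uncertain. ODAPH, a gene of enamel formation, went from 0.29 to 1.60 and from 0.51 to 6.39. The others were INAVA at 1.60, OR7E14P, a pseudogene of a large olfactory receptor family, at 1.35, MAP3K7CL at 1.31, TRIML2 at 1.30, SAMSN1 at 1.29, C5orf46 at 1.27, ASPHD2 at 1.23, SDCCAG8 at 1.14, MEGF6 at 1.13, ESM1, an endothelial proteoglycan, at 1.10, SPECC1 at 1.09, YPEL2 at 1.05, TSPAN2 at 1.04, VMP1 at 1.03 and DNAJB2 at 1.03. Over the 102 genes that rose, 85 had both values at or above the filter, and for 17 the untreated value lay under it.

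**Figure D2:**
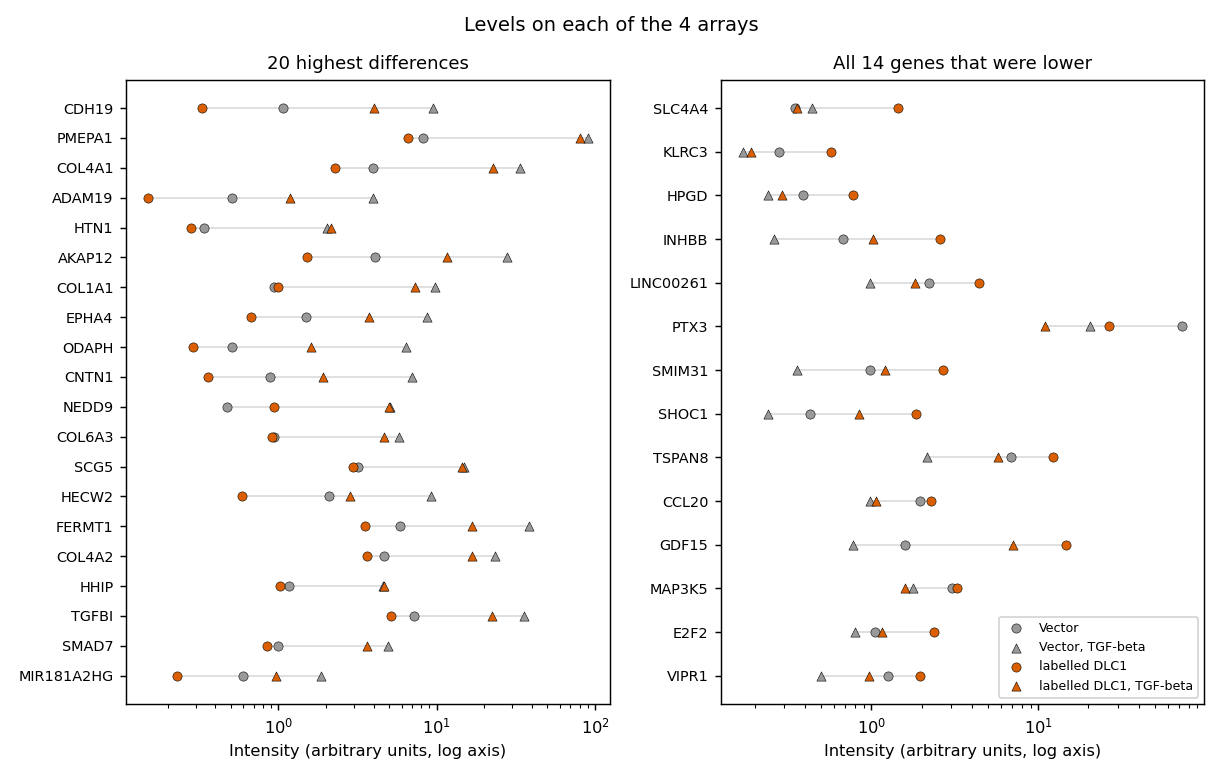
Intensity on each of the 4 arrays, arbitrary units on a log axis, for the 20 genes with the highest differences (left) and all 14 genes that fell (right) in the arrays labelled DLC1; circles are untreated and triangles treated arrays, grey is vector and orange is labelled DLC1. On the left the triangles lie to the right in both colours; on the right the orange circle lies to the right of the orange triangle for every gene, and SLC4A4 has its grey triangle to the right of its grey circle.

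The 14 genes that fell differed by -1.01 to -2.01 in the arrays labelled DLC1. SLC4A4, a sodium bicarbonate cotransporter, fell the most, from 1.45 to 0.36 in the arrays labelled DLC1, and read 0.35 and 0.44 in the vector arrays. The untreated array labelled DLC1 was thus the high one and the other 3 lay near the filter; this was the 1 kept of 5 SLC4A4 probe sets. HPGD, which breaks down prostaglandins, went from 0.78 to 0.29 and from 0.39 to 0.24, and its other kept probe set differed by -1.08 in the arrays labelled DLC1. KLRC3, a natural killer receptor gene with near-identical family members, which makes the gene behind this probe set uncertain, went from 0.57 to 0.19 and from 0.28 to 0.17. For HPGD, KLRC3 and SLC4A4 the treated value lay under the filter, so the size of the fall is a rough one.

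PTX3, a secreted pattern recognition protein induced by inflammatory cytokines, fell from 26.70 to 11 in the arrays labelled DLC1 and from 73.28 to 20.41 in the vector arrays. CCL20, a chemokine, went from 2.27 to 1.07 and from 1.96 to 0.98, 2-fold or more in both. TSPAN8, a tetraspanin of epithelial tumours, went from 12.27 to 5.76 and from 6.86 to 2.15. PTX3 and CCL20 were the 2 of 28 NF-kappaB and chemokine genes that fell, where 0.107% of all genes kept fell. The list's median was -0.38, with 19 of 28 below 0 beside 52.1% of all genes kept. In the vector arrays its median was -0.21, with 18 of 28 below 0 beside 54.8%. In the arrays labelled DLC1 CXCL1 differed by -0.93, IL1B by -0.83 and CXCL8 by -0.77. GDF15 and INHBB, given above, fell too. VIPR1, the receptor for vasoactive intestinal peptide, went from 1.95 to 0.97 and from 1.26 to 0.50. MAP3K5, the stress kinase ASK1, went from 3.28 to 1.59 and from 3.03 to 1.77, and its other kept probe set differed by -0.88. The noncoding RNA LINC00261 went from 4.42 to 1.82 and from 2.21 to 0.98, the membrane protein gene SMIM31 from 2.68 to 1.20 and from 0.98 to 0.36, and SHOC1, a meiotic crossover gene, from 1.86 to 0.84 and from 0.43 to 0.24.

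Genes tied to bone were examined because the study's title concerns bone metastasis. Of 16 kept genes known from bone-metastatic MDA-MB-231 sublines, 0 rose and 1 fell, HPGD, and the median was 0.05. The osteoclast-activating cytokine IL11 differed by 0.95, the chemokine receptor CXCR4 by 0.94 and CCN2 by 0.98, all higher and just under 2-fold in the arrays labelled DLC1; in the vector arrays IL11 rose, by 1.04, and CXCR4 at 0.97 and CCN2, also just short of 1, did not pass. Of 31 bone-acting secreted factors 1 rose and 2 fell in the arrays labelled DLC1, with a median of -0.09, and 6 rose and 5 fell in the vector arrays. EDN1, the vasoconstrictor endothelin, differed by 0.99 and TNFRSF11B, the decoy receptor osteoprotegerin, by 0.92. Of 18 prostaglandin genes HPGD alone passed 2-fold; PTGS2, the inducible cyclooxygenase, differed by -0.37. Counts over these lists cover only the members that were kept.

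**Figure D3:**
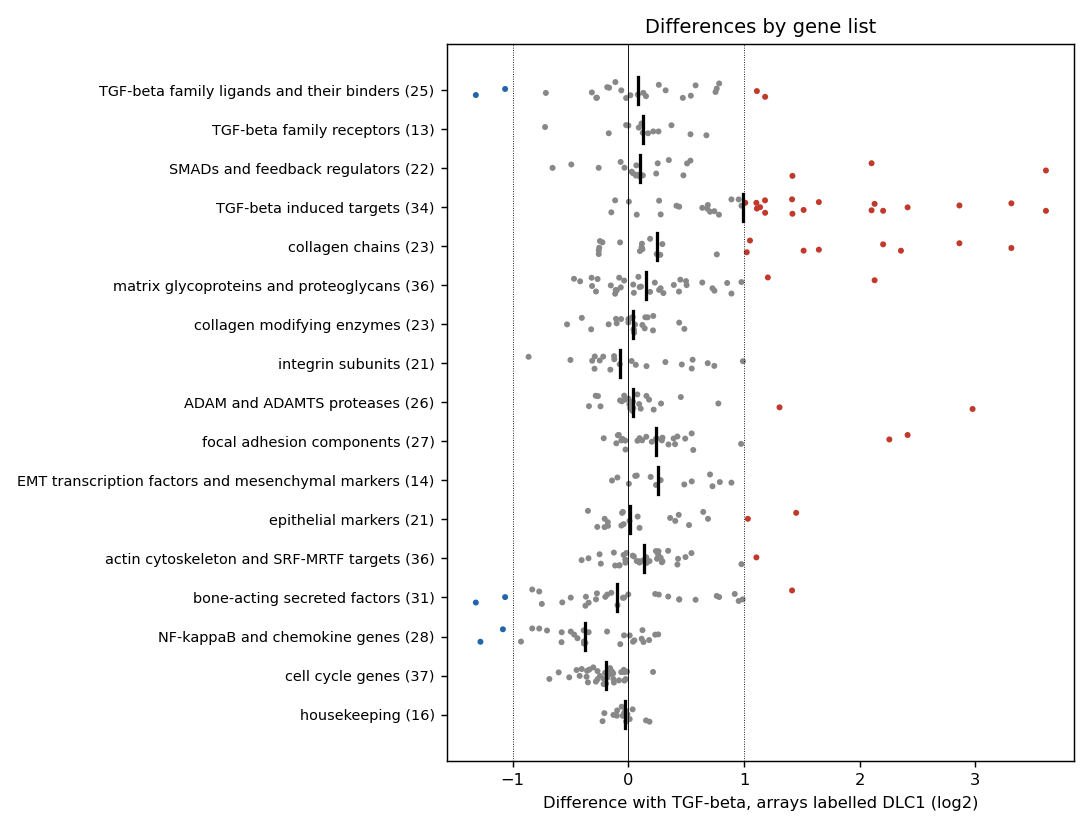
Log2 difference between the treated and untreated arrays labelled DLC1 ( horizontal) of each kept gene in 17 gene lists, with the number kept in brackets; red and blue points passed 2-fold, dotted lines mark 2-fold and the black bar each list's median. The induced targets have a median of 0.99 and 17 red points, the collagen chains a long tail of 8, and the 37 cell cycle genes lie close together around -0.19.

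Other probe sets of the same genes give a second reading from the same 2 arrays. Of the 102 genes that rose, 50 had at least 1 other kept probe set, 101 sets in all, of which 93 were above 0 and 55 passed 2-fold, with a median of 1.04. For 42 of the 50 genes every other set was above 0, and for 19 every other set passed 2-fold. COL4A1 gave 3.35 beside 3.31, and PMEPA1 gave 3.14 and 4.13 beside 3.61, all well past 2-fold. POU3F2, whose other set gave 0.00, COL1A1, NRP2, ADAM19 and CNTN1 were examples of sets that parted. With the mean of a gene's kept probe sets in place of 1 set, 22 of the 116 genes were no longer past 2-fold: ADAMTS6, ASPHD2, CHST3, COL27A1, COL4A4, DAAM1, DCLK1, KRT7, MEGF6, NRP2, PIK3CG, PIK3IP1, POU3F2, PRDM1, PTPRK, SAMSN1, SDCCAG8, SOX5, SPECC1, UBASH3B and VDR among those that rose, and MAP3K5 among those that fell. Only HPGD and MAP3K5 of the 14 genes that fell had a further kept set. Over all 24399 named probe sets kept, without choosing 1 per gene, 178 were at least 2-fold higher, 0.730%, and 23 at least 2-fold lower, 0.0943%.

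**Figure D4:**
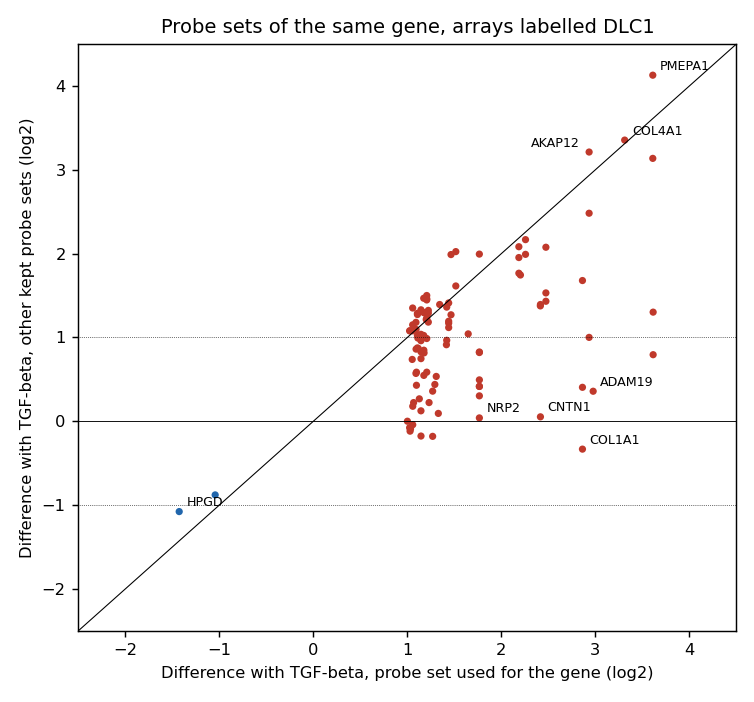
Log2 difference between the treated and untreated arrays labelled DLC1 of the other kept probe sets (vertical) against the probe set used for the gene (horizontal), for genes that rose (red) and fell (blue); the diagonal marks equality and the dotted lines 2-fold. Of the 101 sets of genes that rose 93 lie above 0, and the COL1A1 set at -0.33 is the lowest of them.

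The vector arrays, which share no array with this comparison, were set beside the arrays labelled DLC1. There 157 genes rose, 1.20%, and 90 fell, 0.685%, and 72.5% of genes lay within 0.25 of no difference beside 81.5% in the arrays labelled DLC1. In both, 80 genes rose, which is 78.4% of the rises in the arrays labelled DLC1 and 51.0% of those in the vector arrays. The shared rises were 0.609% of all genes kept. The falls overlapped in 8 genes, 0.0609% of all genes kept, 57.1% of the falls in the arrays labelled DLC1 and 8.89% of those in the vector arrays. The gap between the counts was thus widest on the lower side. No gene rose in one and fell in the other. Of the 80 shared rises 57 were larger in the vector arrays, and the other 23 were larger in those labelled DLC1. The actin and 18S controls also moved further in the vector pair, and whether this bears on the counts was not tested.

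Most genes called in the vector arrays alone lay on the same side of 0 in the arrays labelled DLC1. Their smaller size there follows from how they were chosen. Of the 77 that rose in the vector arrays alone, 76 were above 0 in the arrays labelled DLC1 and 49 were at least 1.5-fold higher; of the 82 that fell there alone, 78 were below 0 and 42 were at least 1.5-fold lower. The 90 genes that fell in the vector arrays had a median of -1.24 there and -0.63 in the arrays labelled DLC1, and the 157 that rose had 1.35 and 1.0. These genes were chosen on the vector values, so the medians are a description, and with 1 array a group the difference between the responses has no test.

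In the other direction, 28 genes passed 2-fold in the arrays labelled DLC1 and not in the vector arrays, 22 that rose and 6 that fell. Of the 22, 18 were at least 1.5-fold higher in the vector arrays. The 4 that were not were SAMSN1, an adaptor of lymphocyte signalling, at 0.53 in the vector arrays on the probe set used, MAF at 0.41, THBS1 at 0.31 on the probe set used, and GJB2 at -0.15. The other kept SAMSN1 probe set gave 0.44 in the arrays labelled DLC1 and 0.66 in the vector arrays, the opposite order. GJB2 read 0.91 and 0.82 in the vector arrays and 0.68 and 1.56 in the arrays labelled DLC1, and was the 1 gene of the 102 that lay below 0 in the vector arrays. Those that fell, 6 in all, were SLC4A4, KLRC3, HPGD, SHOC1, MAP3K5 and E2F2; SLC4A4 was the 1 of the 14 that lay above 0 in the vector arrays, at 0.33.

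**Figure D5:**
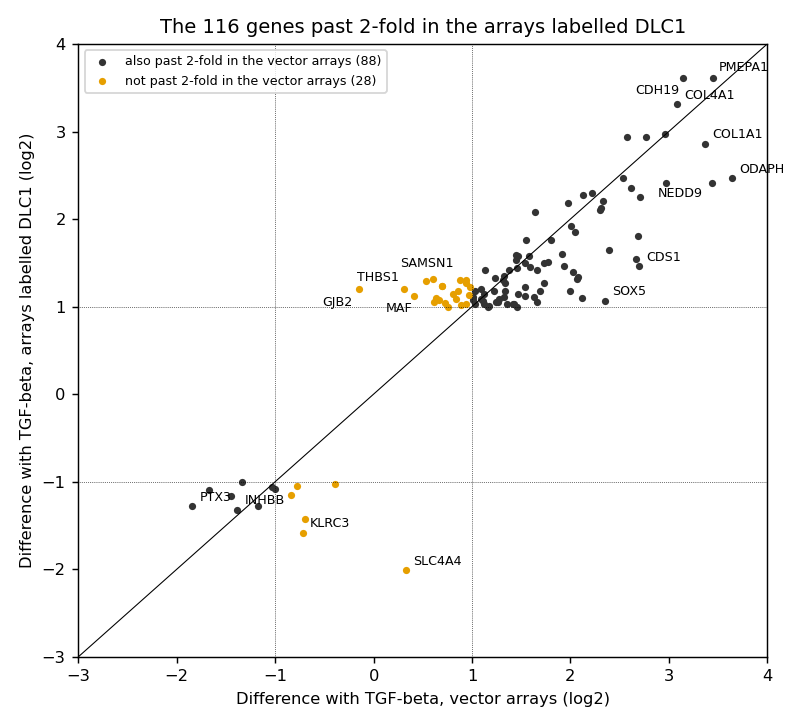
Difference with TGF-beta (log2) of the 116 genes that passed 2-fold in the arrays labelled DLC1, there (vertical) and in the vector arrays (horizontal); black genes also passed 2-fold in the vector arrays and orange ones did not, the diagonal marks equality and the dotted lines 2-fold. Of these genes 88 are black and 28 orange, and SLC4A4 at -2.01 and GJB2 at 1.20 lie across the vertical zero from the rest of their side.

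The difference between the responses, computed from all 4 arrays, was at least 2-fold higher in the arrays labelled DLC1 for 25 genes, 0.190%, and at least 2-fold lower for 23, 0.175%. These counts depend on dim genes: they were 16 and 14 with a pseudocount of 0.1 added to each value, and 4 and 7 with 0.5. On the higher side most of the leading genes fell in the vector arrays and stayed within 2-fold in the arrays labelled DLC1. EREG, the EGF receptor ligand epiregulin, read 0.79 and 0.14 in the vector arrays and 0.42 and 0.25 in the arrays labelled DLC1. SPRY1, a feedback inhibitor of ERK signalling, read 3.61 and 0.66 against 4.26 and 2.28. CAVIN2, a coat protein of caveolae, read 4.15 and 0.96 against 1.07 and 0.65. For SPRY1 the treated vector array was the low one, whereas for CAVIN2 both arrays labelled DLC1 were also low. NDP, a secreted ligand of a Wnt receptor, GIMAP2, SHISA3, TXK, SHROOM2 and ANXA10 differed by -0.35 to 0.50 in the arrays labelled DLC1, and their untreated vector value was the highest of the 4 in each case. NDP, GIMAP2, SHISA3 and SHROOM2 lay under the filter on both arrays labelled DLC1 and were kept through a vector array, so no size can be read for them there.

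On the lower side the leading genes, apart from SLC4A4, rose in the vector arrays and either rose by a smaller factor or stayed within 2-fold in the arrays labelled DLC1. SOX4, a transcription factor known as a TGF-beta target in breast cancer, read 6.84 and 25.16 in the vector arrays and 18.34 and 27.60 in the arrays labelled DLC1. The treated levels of SOX4 were close and the untreated ones were not. SULT1B1, a sulfotransferase, read 0.23 and 1.04 against 0.17 and 0.21, and FAM83A, a signalling adaptor, 1.8 and 6.03 against 1.35 and 1.85. SOX5, CDS1 and ODAPH rose in both, with a larger difference in the vector arrays. VASN, a membrane protein that binds TGF-beta, differed by 0.46 in the arrays labelled DLC1 against 1.69 in the vector arrays. LINC00842 read 0.13 and 0.43 in the vector arrays against 0.11 and 0.16, and GZMK 0.15 and 0.49 against 0.16 and 0.21. SULT1B1, LINC00842 and GZMK lay under the filter on both arrays labelled DLC1. They were kept through the treated vector array, so no size can be read for them in the arrays labelled DLC1.

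Promoter windows of 250 bases before the start were available for 85 of the 102 genes that rose and all 14 that fell. The AP-1 motif TGANTCA, on either strand, was in 14 of 130 windows of the genes that rose, 10.8%, in 4.35% of the windows of those that fell and in 4.70% of all windows of genes kept. The E-box CAGGTG was in 13.8%, 17.4% and 16.1% of these windows, the TEAD motif GGAATG in 7.69%, 13.0% and 10.04%, and the CArG box of SRF in 2.31%, 0% and 1.09%. The SMAD palindrome GTCTAGAC was in 0 windows of the genes that rose or fell and in 0.123% of all. The shares are descriptions of these windows, in which a gene with several starts is counted several times. The genes that rose were also longer, with a median span of 55.8 kb beside 28.3 kb for all genes kept and 29.4 kb for those that fell.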

How the data were processed

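The authors deposited a linear intensity, given to 2 decimals, for each of 54675 probe sets, from 0.05 to 265.58. RMA, which corrects background, equalises array distributions and summarises probes, appears per the submitters' processing notes with neither version nor settings; the scale's divisor is not stated. Cultures were trypsinised, RNA isolated with Trizol and cDNA primed with oligo-dT, per the labels' protocols. Equalised distributions hide a change shared by most genes, and rounding makes ratios of dim values coarse. The number of arrays limits precision.

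Log2 was taken of the deposited intensities and the untreated array subtracted from the treated one. Of 42898 probe sets in the platform annotation, 41097 have 1 symbol and 1801 several; 11777 are unlisted and unnamed here. Identifiers of 41043 matched the RefSeq table (GRCh38.p14). A gene took its probe set with the highest mean log2 over the 4 arrays. Promoter sequences came from the RefSeq table of the same build. The members and the 45 gene lists were chosen with earlier results of these data known, so list counts are descriptions; 1 list is not reported here. Named genes were DLC1, every gene past 2-fold in the arrays labelled DLC1, up to 6 members of each list with the biggest differences, and the 10 highest and 10 lowest genes of the difference between the responses; probe sets with no gene name are given as counts, and some are not reported here. Alternatives were the choice of probe set, the filter, the scaling and a pseudocount. Python 3.11.15, numpy 2.4.6, pandas 2.3.3, and limma 3.58.1 in R 4.3.3 for cyclic loess were used.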

Additional observations from a re-analysis of the deposited data

Results flagged for a closer look

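In 4 of the genes that passed 2-fold in at least 1 of the backgrounds, the treated array labelled DLC1 differed one way from its untreated partner and the treated vector array differed the other way, and the responses were at least 2-fold apart; with 1 array a group the difference between the responses was not tested. SLC4A4 differed by -2.01 in the arrays labelled DLC1 and by 0.33 in the vector arrays. GJB2 differed by 1.20 and -0.15. NDP, a secreted ligand of a Wnt receptor, differed by 0.13 and -1.62, and read 0.22 and 0.24 in the arrays labelled DLC1, both under the filter, against 1.14 and 0.37 in the vector arrays. GSAP, a protein linked to gamma-secretase, differed by 0.11 and -1.05, and read 1.81 and 1.96 against 5.94 and 2.86.

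Among the probe sets with no gene name, 3622 of 11721 were kept, and 16 of them, 0.442%, were at least 2-fold higher in the treated than in the untreated array labelled DLC1 and 5 at least 2-fold lower. Among those with several symbols, 1176 of 1801 were kept, and 2 were at least 2-fold higher and 2 lower.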

How the results depend on the processing

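The results were recomputed under 11 alternatives, and no called gene reversed its direction. Of the 116 genes past 2-fold, 54 (48 that rose and 6 that fell) stayed past it under every alternative that kept them; the 6 were GDF15, INHBB, LINC00261, PTX3, SLC4A4 and TSPAN8. A pseudocount of 0.5, added to every value before log2, moved most counts: 52 genes were higher and 6 lower in the arrays labelled DLC1, 46 higher and 2 lower in both backgrounds, and the response was higher in 4 and lower in 7. With a pseudocount of 0.1, 5 genes were lower in both, and the response was higher in 16 and lower in 14 genes. Pseudocounts shrink the differences of dim genes by construction. With both arrays labelled DLC1 required to reach the median, the response was lower in 13 genes. Under all alternatives other than the pseudocount of 0.5, 84 to 110 genes were higher and 11 to 14 lower in the arrays labelled DLC1. The mean of a gene's kept probe sets gave 85 and 13, of which 81 and 13 were among the main calls. Centring on the median or on housekeeping genes gave 110 and 12. The share of higher calls stayed between 86.7% and 90.2%, beside 87.9% as reported. Of 45 list medians, 5 moved by 0.1 or more under some alternative; that of the collagen chains was 0.52 with the filter at 2 times the median and 0.11 with a pseudocount of 0.5. No paired analysis was possible because each group has 1 array and the labels give no shared replicate numbers.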
